A study of Mus musculus with 59 samples.

Results

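The comparison described here sets 2 mutant forms of the PAIR4 element against each other: one in which the CTCF-binding site was altered (Igh P4ΔCtcfGV/P4ΔCtcfGV) and one in which the Pax5-binding site was altered (Igh P4ΔPax5GV/P4ΔPax5GV). It rests on 5 VDJ-seq libraries of pro-B cells, 2 of the CTCF-site mutant and 3 of the Pax5-site mutant, out of 48 VDJ-seq libraries and 59 samples in the whole series. VDJ-seq captures rearranged Igh alleles from genomic DNA by extension from the JH segments and counts which VH gene was joined. The pro-B cells were sorted ex vivo from bone marrow, and no expression was measured in these libraries, so that markers of the sorted cells were not checked. The age of the mice is not given in the sources used here for these libraries.

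Both genotypes were homozygous on the C57BL/6 background, and both carried the Δ890 deletion, which removes every PAIR element and a large block of distal VH genes. At the deletion point, both carried the same inserted module, consisting of PAIR4 with a Gfp cDNA and polyadenylation sites in its second exon, the VH8-7 gene and the enhancer V8.7E downstream of it. Each allele was made in ES cells. The only VH gene restored by the module is VH8-7, and all other VH genes of the deleted block are missing in both mutants. The mutants therefore differ from each other in both sites at once, and the difference between them cannot be told apart into an effect of one site or the other. Libraries of the same run with the intact module (P4GV, 1 library) and of Igh(+/+) mice (3 libraries) are given beside them as reference levels, without a test.

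In V(D)J recombination, the RAG recombinase first joins a DH to a JH segment and then a VH gene to the DJH joint. VH genes lie in families over a very long region, with VH5 and VH2 genes next to the DH segments (proximal) and VH1 and VH8 genes mostly at the far (distal) end. Pax5, the B-lineage commitment factor, is required for contraction of the locus and for recombination of distal VH genes. CTCF binds DNA in an oriented manner, halts loop-extruding cohesin and can insulate regulatory elements. PAIR elements are repeats between distal VH genes that bind both factors and are mostly found beside VH8 genes.

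The Pax5 site and its surroundings are shown here because every comparison turns on PAIR4. The oligonucleotides that the study designed for the Pax5 site of PAIR4 differed at 9 of 35 positions, which are in capitals, and they read as follows.
Wild-type Pax5 site: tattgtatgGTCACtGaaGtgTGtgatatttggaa
Mutant Pax5 site: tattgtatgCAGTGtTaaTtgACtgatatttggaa
The wild-type oligonucleotide matched chromosome 12 of the mouse assembly NCBIM37 (mm9) at 4 places, since PAIR elements are repeats. The match that lies between the PAIR4 primers of the study, one of which has a single match on this chromosome, was at chr12:116500696-116500730 on the plus strand.

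The PAIR4 stretch around the Pax5 site is printed with the Pax5 oligonucleotide and a match to the core letters of the CTCF motif (CC, then AG after 3 bases of any kind, then GG after 2 bases of any kind) in capitals, at chr12:116500686-116500852 of NCBIM37, plus strand.
PAIR4: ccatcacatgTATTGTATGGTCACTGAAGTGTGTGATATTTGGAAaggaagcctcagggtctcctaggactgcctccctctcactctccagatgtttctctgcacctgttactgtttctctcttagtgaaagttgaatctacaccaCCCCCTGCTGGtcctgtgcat
The CTCF-like letters were on the minus strand, where they read CCAGCAGGGGG, and 101 bases separated them from the Pax5 oligonucleotide. They were the 1 match to this motif, on both strands, in the 310 bases between the primers. Such a match is a description of letters only, since the motif occurred on either strand in 24.0% of 32851 RefSeq promoters of 300 bases each. No feature of the GENCODE M1 annotation overlapped the printed stretch. Whether these letters are the CTCF site that was altered was not tested, and the altered sequence is not printed here.

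The labels of the run needed care before any comparison. Of the 12 files of the run, 3 pairs held identical values for all 240 VH genes listed, which left 9 distinct libraries. The CTCF-site mutant is represented by the library labelled P4_delta_CtftGV (library A), whose values recur in a file labelled Igh(+/+), and by a library that is itself labelled Igh(+/+) (library B). Library B was assigned to the CTCF-site mutant because its values equal, within 1e-05 at 183 of 183 VH genes, a column listed under this genotype in the source data. The VH genes of the deleted block other than VH8-7 summed to 0.153% of joints in library B and to 0.219% in library A. The same sum was 0.175%, 0.236% and 0.238% in the Pax5-site libraries and at least 8.67% in the Igh(+/+) libraries. Library B thus lacked the deleted VH genes in the same way as the mutants, which separates it from Igh(+/+) but not, by itself, one inserted allele from another. The 2 other files labelled P4_delta_CtftGV were left out, since each was identical to an Igh(+/+) or a P4GV library.

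Pax5-site library 1 also stood apart, as 139 of its 240 VH genes were listed at 0, compared with 94 and 95 in Pax5-site libraries 2 and 3 and with 99 and 104 in libraries A and B. The files hold percentages without counts of joints, and no counting interval is given. The spacing of the values shows that Pax5-site library 1 was coarser, as its smallest value above 0 was 0.00685%, compared with 0.000803% to 0.00106% in the other 4 libraries. Between 93 and 108 of the values above 0 in those 4 libraries (136 to 146 per library), and 79 of 101 in Pax5-site library 1, were whole multiples of the smallest one within 0.01 of a multiple. Since the others were not, no single step was taken as 1 joint. In Pax5-site library 1, VH8-7 was at 33, VH1-83 at 9 and VH1-4 at 6 times its smallest value, compared with at least 102 times for each of these genes in the other 4 libraries. Each library is 1 mouse. The p-values from limma rest on a spread pooled over VH genes, fully for shares of VDJH and DJH joints and in part for shares of VDJH joints. They therefore do not measure the spread of a single gene between these few libraries alone. With 2 libraries against 3 there are 10 splits, so that the exact permutation test of a single value (two-sided, on the absolute difference of means) cannot give a p below 0.1. With so few splits, groups that do not differ can also separate fully, so that a lack of overlap is weak evidence by itself.

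VH8-7, the gene that was inserted together with PAIR4, was recombined less often in the CTCF-site mutant than in the Pax5-site mutant in every library. Its level among VDJH joints was 0.296% in library A and 0.325% in library B. In the Pax5-site libraries 1 to 3, it was 0.652%, 0.789% and 0.643%. The groups did not overlap, and the highest CTCF-site library was well below the lowest Pax5-site library. The mean was 0.310% ± 0.0207 (SD, n = 2) in the CTCF-site mutant and 0.695% ± 0.0817 (SD, n = 3) in the Pax5-site mutant, a 2.24-fold difference (exact permutation test, p = 0.1, the smallest p possible).

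Across all VH genes, the level of VH8-7 among VDJH joints passed the test, with a log2 difference (CTCF-site minus Pax5-site, on log2 of percentage plus 0.01) of -1.13 ± 0.17 (SE) and an adjusted p of 0.0496 (limma, Benjamini-Hochberg over 110 VH genes). It was the only one of the 110 VH genes to do so, which is 0.909% of those tested. This call lies at the threshold. It was lost without library A (adjusted p = 0.527 by limma), without library B (0.347), without Pax5-site library 2 (0.243) and without Pax5-site library 3 (0.146). It was kept without Pax5-site library 1 (adjusted p = 0.00309 by limma), and the log2 difference stayed between -1.20 and -1.04 in these 5 fits.

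As a share of all joints, that is of VDJH and DJH joints together, VH8-7 made up 0.139% and 0.108% in libraries A and B. It made up 0.226%, 0.299% and 0.232% in the Pax5-site libraries. The groups again did not overlap, and the means differed by 2.04-fold (exact permutation test, p = 0.1). On this scale, which is the main one for all VH genes here, the log2 difference was -0.97 ± 0.34 (SE) and did not pass the test (limma, adjusted p = 0.169 over 104 VH genes). Without library B, whose label is at odds, the difference was -0.80 (limma, adjusted p = 0.197).

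The reference libraries place these levels. VH8-7 made up 0.689% of VDJH joints in the P4GV library with both sites intact, and between 0.492% and 0.640% in the Igh(+/+) libraries, where the gene is in its natural position. On this scale, all 3 Pax5-site libraries lay above the Igh(+/+) libraries, the lowest of them only narrowly, and 1 lay above the P4GV library, whereas both CTCF-site libraries lay below all of these. The VDJH joints of Igh(+/+) also include the VH genes of the deleted block, which the mutants lack. Per all joints, the Igh(+/+) libraries were between 0.212% and 0.274%, so that Pax5-site libraries 1 and 3 lay within their range, library 2 above it and both CTCF-site libraries below it. In each of 3 libraries with the Δ890 deletion and no insertion, which were of another run, VH8-7 was listed at 0. The values of the mutants therefore refer to the inserted gene.

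**Figure D1:**
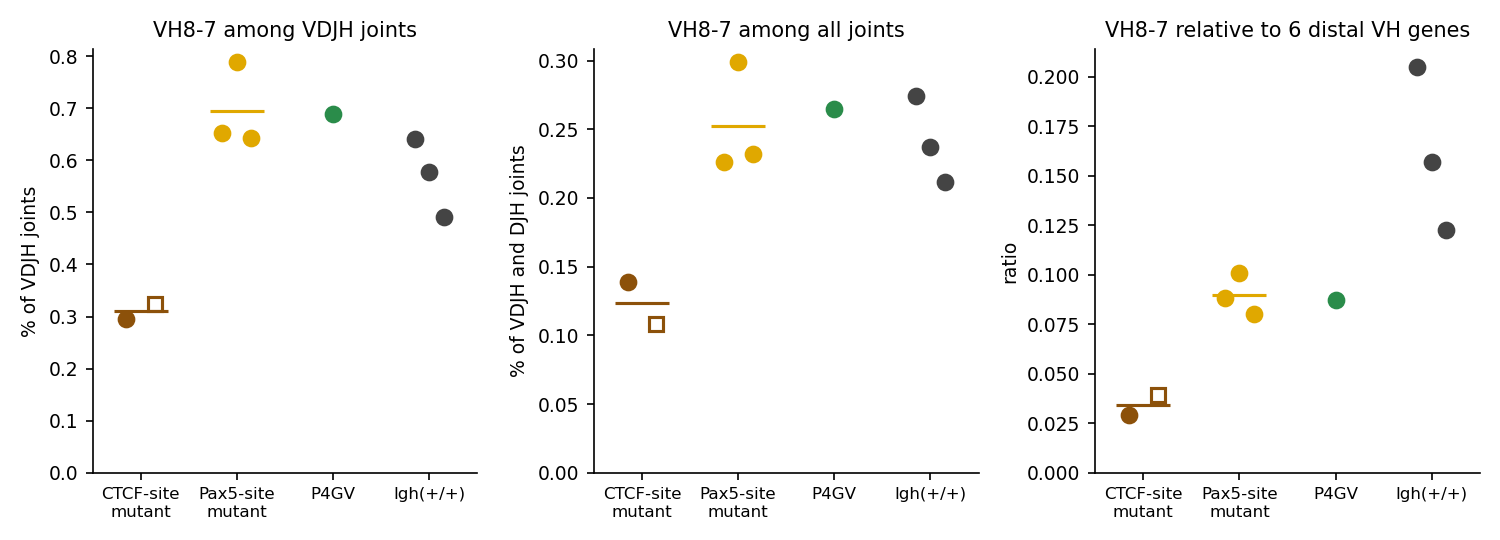
VH8-7 usage in each library of the run, as % of VDJH joints (left), as % of VDJH and DJH joints (middle) and as a ratio to the summed usage of the 6 distal VH genes (right). Each point is a library, the open square is library B (labelled Igh(+/+)), and lines are group means. The CTCF-site libraries, at 0.296% and 0.325% of VDJH joints, lie below the 3 Pax5-site libraries at 0.643% to 0.789%.

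The share of alleles that had completed VH-DJH recombination did not separate the genotypes. VDJH joints made up 47.0% of all joints in library A but 33.2% in library B, and 34.7%, 37.9% and 36.05% in the Pax5-site libraries. The CTCF-site libraries thus lay on either side of the Pax5-site libraries. The means were 40.1% ± 9.76 (SD, n = 2) and 36.2% ± 1.61 (SD, n = 3), and the difference was smaller than the spread of the CTCF-site libraries (exact permutation test, p = 0.7). The P4GV library was at 38.4%, and the Igh(+/+) libraries were between 41.1% and 43.0%.

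This gap between libraries A and B moved with most VH genes when usage was given per all joints. Library A was above all 3 Pax5-site libraries at 68 of 104 VH genes and below them at 8. Library B was above at 12 and below at 47. As a share of VDJH joints, library A was above at 22 and below at 29 of 110 VH genes, and library B at 22 and 32. Where a gene separated the mutants on one of these scales only, this is said beside it. The median log2 difference of all tested VH genes was 0.10 per all joints and -0.01 per VDJH joints.

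The 6 distal VH genes (VH1-85 to VH1-80) are the genes that the study followed upstream of the inserted module, and both mutants keep them. They were recombined at high levels in both mutants, and their sum was somewhat higher in the CTCF-site mutant when given per VDJH joints. They made up 10.1% of VDJH joints in library A and 8.32% in library B. In the Pax5-site libraries, they made up 7.38%, 7.80% and 8.02%. There was no overlap, although library B lay close to the highest Pax5-site library. The means were 9.19% ± 1.23 (SD, n = 2) and 7.74% ± 0.327 (SD, n = 3), a ratio of 1.19 (exact permutation test, p = 0.1). Without library A, the ratio was 1.08.

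Per all joints, the sum of the 6 distal VH genes was 4.73% in library A and 2.76% in library B. It was 2.56%, 2.95% and 2.89% in the Pax5-site libraries. Library B lay within the Pax5-site range, and only library A was above it (ratio of means 1.34, exact permutation test, p = 0.3). The direction on this scale rested on library A, as the ratio was 0.986 without it and 1.69 without library B. The P4GV library was at 3.03%, and the Igh(+/+) libraries were between 1.34% and 1.72%.

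**Figure D2:**
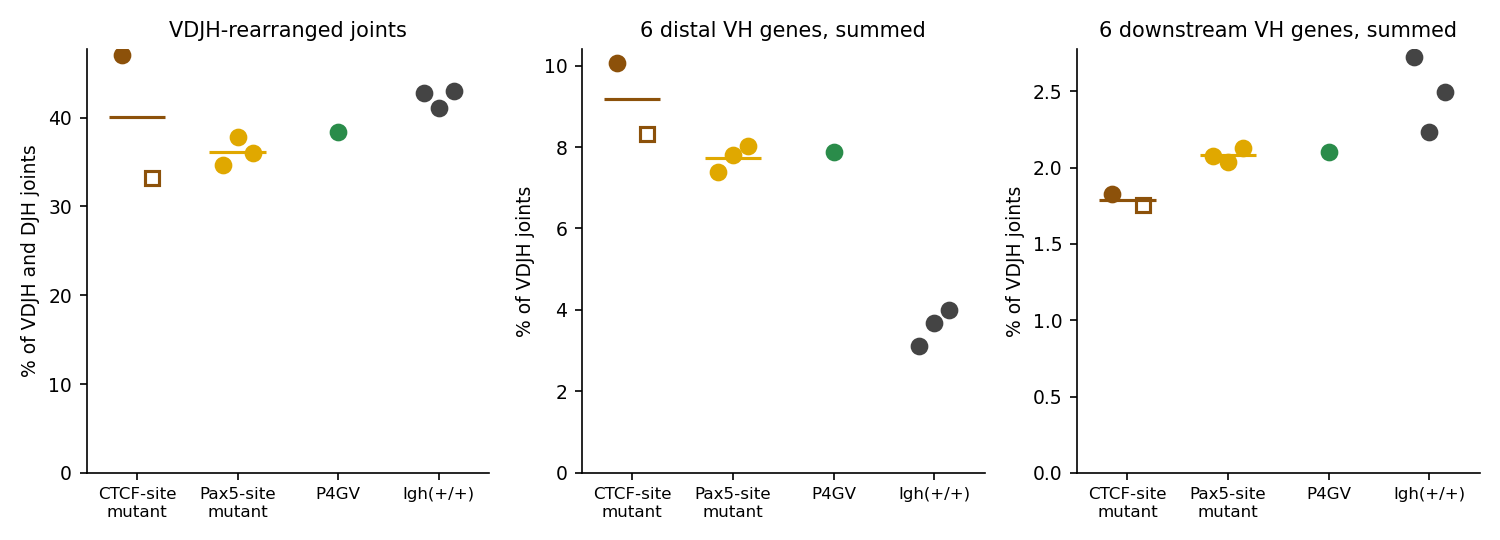
VDJH joints as % of VDJH and DJH joints (left), and the summed usage of the 6 distal (middle) and 6 downstream VH genes (right) as % of VDJH joints, in each library of the run. Points are libraries, the open square is library B and lines are group means. VDJH joints of the CTCF-site libraries (47.0% and 33.2%) lie on either side of the Pax5-site libraries, whereas the sums do not overlap between the mutants.

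Among the 6 distal VH genes, VH1-83 showed the largest log2 difference when all 5 libraries were in the fit. In percentage points, VH1-82 differed more, with means of 2.63% and 1.96% of VDJH joints in the CTCF-site and Pax5-site mutants. It made up 0.468% and 0.437% of VDJH joints in libraries A and B, and 0.178%, 0.296% and 0.280% in the Pax5-site libraries. The groups did not overlap on either scale, with Pax5-site library 1 the lowest of the 5. The log2 difference was 0.85 ± 0.27 (SE) per VDJH joints and 0.93 ± 0.34 (SE) per all joints, and neither passed the test (limma, adjusted p = 0.693 and 0.169). Without Pax5-site library 1, the log2 difference of VH1-83 was 0.70 per all joints and 0.63 per VDJH joints. That of VH1-85 was then larger, at 0.77 and 0.69.

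VH1-81 and VH1-82 were the most used of the 6 genes in every library. VH1-82 made up 3.01% and 2.24% of VDJH joints in libraries A and B, and 1.60%, 2.11% and 2.15% in the Pax5-site libraries. VH1-81 made up 4.06% and 3.46%, compared with 3.26%, 3.34% and 3.40%. On this scale, library B was only just above the highest Pax5-site library for both genes, and the log2 differences of 0.42 ± 0.19 (SE) and 0.17 ± 0.12 (SE) did not pass the test (limma, adjusted p = 0.693 and 0.861). They depended on the CTCF-site library, with 0.21 for VH1-82 and 0.054 for VH1-81 without library A, and 0.63 and 0.29 without library B. Per all joints, both genes overlapped, as library B was at 0.743% for VH1-82, against 0.555%, 0.801% and 0.776%, and at 1.15% for VH1-81, against 1.13%, 1.26% and 1.23%.

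The gene nearest to the insertion, VH1-80, went the other way on the VDJH scale. It made up 1.38% and 1.33% of VDJH joints in libraries A and B, and 1.39%, 1.38% and 1.55% in the Pax5-site libraries. The groups did not overlap on this scale, but library A and the lowest Pax5-site library differed by less than the last printed digit, and the log2 difference of -0.09 ± 0.12 (SE) did not pass the test (limma, adjusted p = 0.861). Per all joints, VH1-80 overlapped and its difference was 0.04, so that its sign depends on the scale.

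The outermost of the 6 genes overlapped between the mutants on both scales. VH1-85 made up 0.910% and 0.650% of VDJH joints in libraries A and B, and 0.711%, 0.490% and 0.456% in the Pax5-site libraries. VH1-84, the least used of the 6 genes in 4 of the 5 libraries, made up 0.216% and 0.207%, compared with 0.237%, 0.178% and 0.179%. Pax5-site library 1 was the highest of its group for both, and the log2 differences were 0.50 ± 0.25 (SE) and 0.10 ± 0.25 (SE), which did not pass the test (limma, adjusted p = 0.693 and 0.939). For VH1-85, the difference was 0.26 without library A and 0.74 without library B, and per all joints it was 0.13 and 1.09.

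In counts, 3 of the 6 distal VH genes were higher and 1 was lower without overlap per VDJH joints, compared with 8 higher (7.27%) and 16 lower (14.5%) of the 110 VH genes tested (together 21.8%). Per all joints, 1 of 6 was higher without overlap, compared with 10 higher (9.62%) and 6 lower (5.77%) of 104 (together 15.4%). None passed the test after adjustment on either scale. The median log2 difference of the 6 genes was 0.29 per VDJH joints and 0.42 per all joints, beside -0.01 and 0.10 for all tested VH genes. It rested on library A, as it was 0.14 per VDJH joints and 0.02 per all joints without it, compared with 0.46 and 0.83 without library B.

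**Figure D3:**
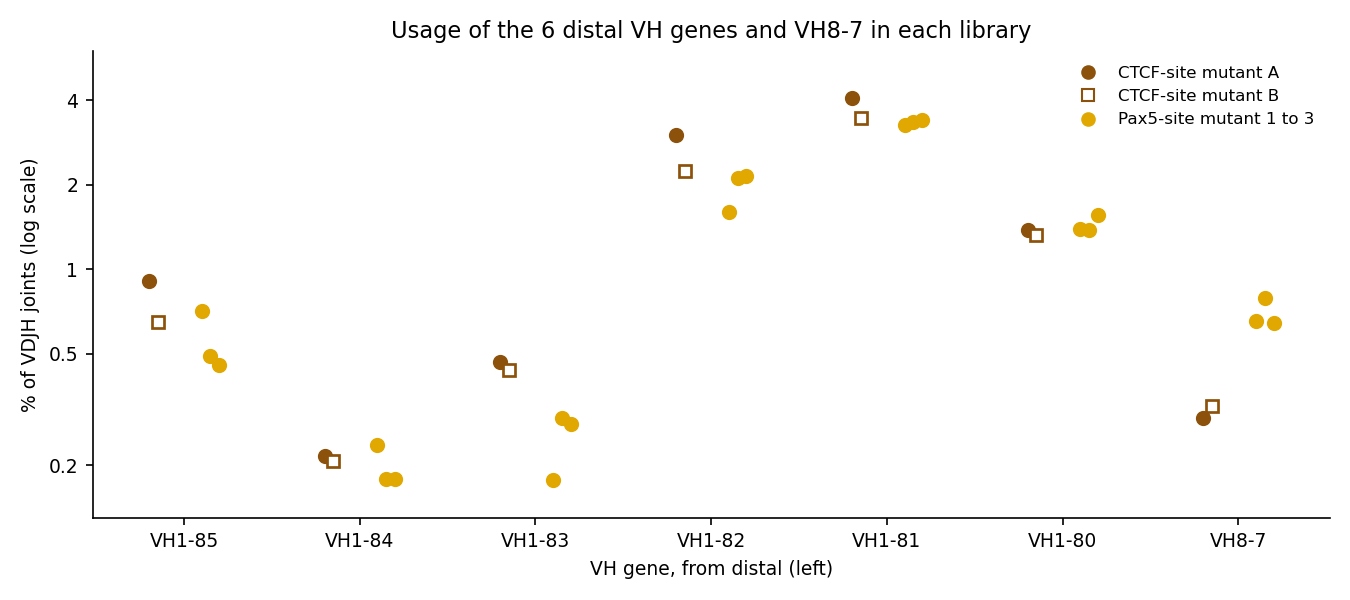
Usage of each of the 6 distal VH genes and of VH8-7 as % of VDJH joints (log scale) in the 5 mutant libraries, with genes ordered from the distal end. Brown marks are the CTCF-site libraries (open square, library B) and yellow points the Pax5-site libraries. VH8-7 is lower in both CTCF-site libraries, VH1-83 is higher in both, and the VH1-80 values lie close together.

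The ratio of VH8-7 to its upstream neighbours compares both within a library and does not depend on the share of VDJH joints. VH8-7 was used at 0.0294 and 0.0391 of the summed level of the 6 distal VH genes in libraries A and B. In the Pax5-site libraries, the ratio was 0.0884, 0.101 and 0.0801. The groups did not overlap, and the mean ratio was 2.62-fold higher in the Pax5-site mutant (exact permutation test, p = 0.1). The P4GV library was at 0.0875, within the Pax5-site range.

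The 6 downstream VH genes (VH1-47, VH1-43, VH1-42, VH1-39, VH1-37 and VH1-36) lie on the other side of the insertion. Their sum was 1.83% and 1.75% of VDJH joints in libraries A and B, and 2.07%, 2.04% and 2.13% in the Pax5-site libraries. These values did not overlap (ratio of means 0.860, exact permutation test, p = 0.1). Per all joints, they did overlap, with 0.858% and 0.582% against 0.719%, 0.772% and 0.767% (exact permutation test, p = 0.8).

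Among the downstream genes, VH1-39 and VH1-47 were lower on average in the CTCF-site mutant on this scale. VH1-39 made up 0.543% and 0.558% of VDJH joints in libraries A and B, and 0.771%, 0.656% and 0.660% in the Pax5-site libraries, with no overlap. VH1-47 made up 0.681% and 0.516%, compared with 0.889%, 0.662% and 0.800%, with overlap. Their log2 differences of -0.33 ± 0.15 (SE) and -0.39 ± 0.20 (SE) did not pass the test (limma, adjusted p = 0.693 for both), and both genes overlapped per all joints. VH1-42, VH1-37 and VH1-36 overlapped between the mutants, and VH1-43 had too low a mean usage to be tested per all joints. The median log2 difference of the downstream genes per VDJH joints was 0.09, opposite in sign to the difference of their sum, as 4 of the 6 were higher on average and 2 were lower.

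The ratio of the 6 distal to the 6 downstream VH genes was 5.51 and 4.75 in libraries A and B, and 3.56, 3.83 and 3.77 in the Pax5-site libraries. The groups did not overlap, and the ratio of means was 1.38 (exact permutation test, p = 0.1). The P4GV library was at 3.74, while the Igh(+/+) libraries were between 1.14 and 1.65.

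Across the 240 listed VH genes, 157 were above 0 in at least 1 of the 5 mutant libraries. Of the 104 VH genes with a mean usage of at least 0.01% outside the deleted block (VH8-7 included), none passed the test at an adjusted p of 0.05 per all joints (limma, 0.0% called). At an unadjusted p under 0.05 there were 4 (3.85%), namely VH1-4, VH1-83 and VH5-9, with a higher mean (2.88%), and VH8-7, with a lower mean in the CTCF-site mutant. VH5-9 was named only after its values were seen, since it overlapped between the groups and was listed at 0 in Pax5-site library 1. The number was 9 without library A and 19 without library B. Per VDJH joints there were also 4 of 110 (3.64%), of which VH8-7, VH1-32 and VH12-1 had a lower mean (2.73%) and VH1-83 a higher mean. This number was 1 without library A, 11 without Pax5-site library 1 and 2 without Pax5-site library 3.

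VH1-4, a gene of the VH1 region downstream of the deletion, had the smallest unadjusted p per all joints. It made up 0.254% and 0.227% of all joints in libraries A and B, and 0.0411%, 0.183% and 0.158% in the Pax5-site libraries. No overlap was seen, but Pax5-site library 1 was far below its group. The log2 difference was 1.08 ± 0.34 (SE) and did not pass the test (limma, adjusted p = 0.158), and it was 0.47 without Pax5-site library 1.

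The other VH genes chosen by the smallest unadjusted p without overlap were used at low levels. VH5-6-4, a VH5 name without a position in the RefSeq table, made up 0.0591% and 0.0381% of all joints in libraries A and B, compared with 0.0205%, 0.0253% and 0.0229%. VH1-32 made up 0.0368% and 0.0222%, compared with 0.0616%, 0.0506% and 0.0485%. VH12-1 made up 0.0761% and 0.0858%, compared with 0.123%, 0.128% and 0.116%. VH5-6-4 was thus higher, and VH1-32 and VH12-1 were lower, in both CTCF-site libraries. Their log2 differences were 0.81, -0.71 and -0.54 (limma, adjusted p = 0.967 for each). These 3 genes and VH1-4 did not overlap per VDJH joints either.

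**Figure D4:**
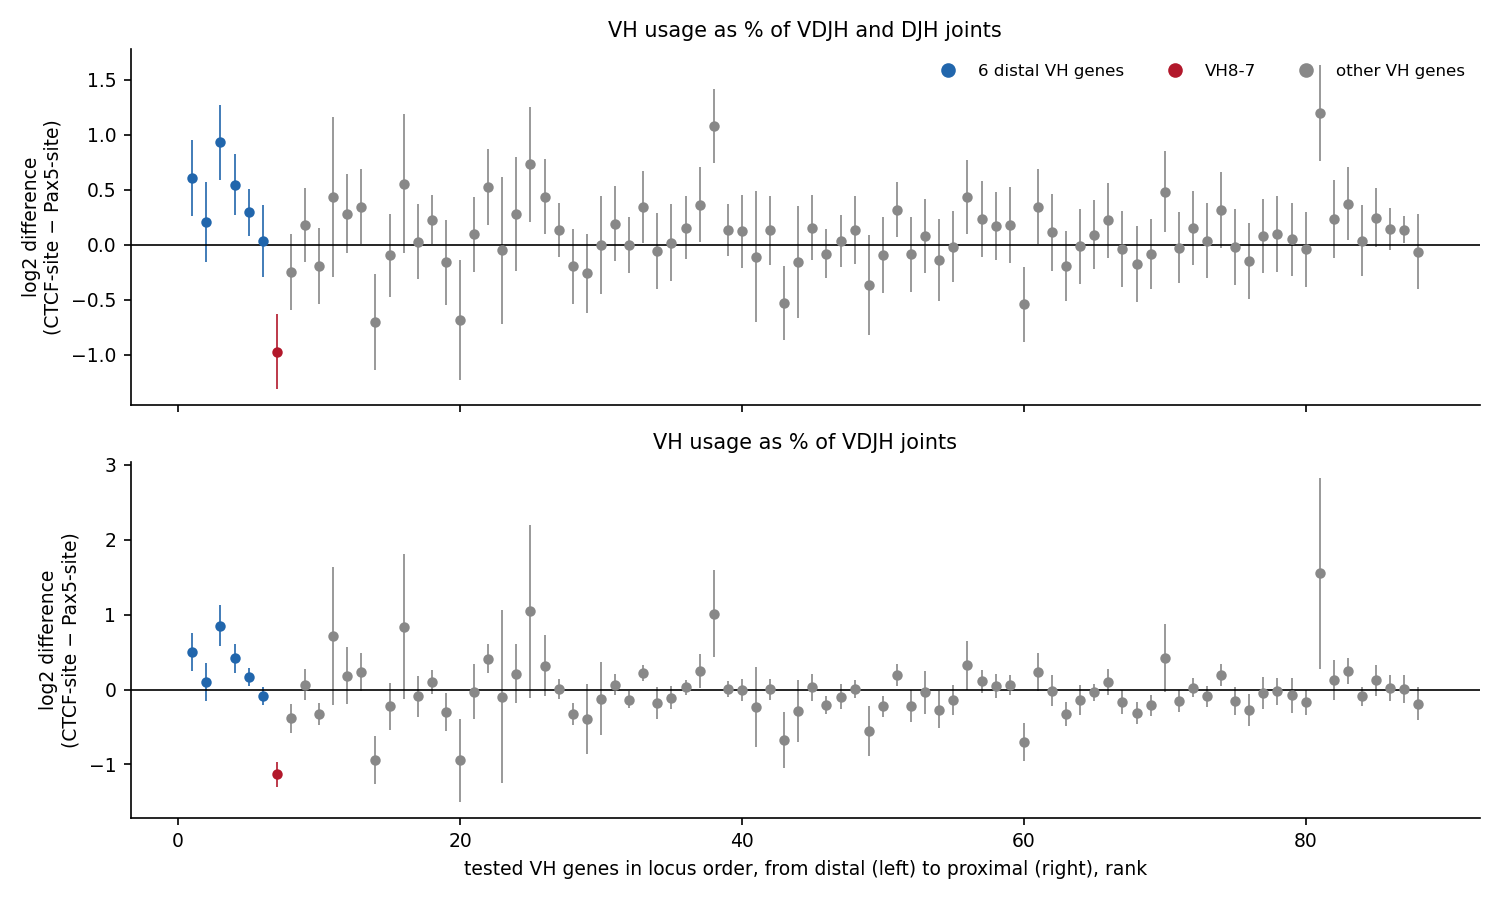
Log2 difference in usage (CTCF-site minus Pax5-site mutant) of the tested VH genes with a known position, ranked from the distal (left) to the proximal end (right), per VDJH and DJH joints (top) and per VDJH joints (bottom). Points are VH genes and bars are SE from limma. VH8-7 (red) lies at -0.97 and -1.13, next to the 6 distal VH genes (blue), of which only VH1-80 lies below 0, and only per VDJH joints.

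The most used VH genes showed small differences between the mutants. VH5-2, the proximal VH5 gene with the highest usage, made up 3.06% and 3.18% of all joints in libraries A and B, and 3.06%, 2.78% and 2.69% in the Pax5-site libraries. VH2-2, a proximal VH2 gene, made up 1.68% and 1.68%, compared with 1.60%, 1.46% and 1.51%. Both were slightly higher without overlap per all joints, but overlapped as a share of VDJH joints, with log2 differences of 0.01 and 0.02. Of VH1-26, VH12-3, VH10-1, VH13-2 and VH1-18, which with VH1-81 complete the 8 most used genes, only VH12-3 did not overlap per VDJH joints. VH12-3 made up 3.13% and 2.92% of VDJH joints, compared with 3.79%, 3.22% and 3.49% (log2 difference -0.21, limma, adjusted p = 0.790), but overlapped per all joints. The median log2 difference of the 8 genes per VDJH joints was 0.01.

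By region, the mutants overlapped downstream of the deletion when usage was given per VDJH joints. The proximal region (VH5-1 to VH7-1) held 24.4% and 30.0% of VDJH joints in libraries A and B, and 28.5%, 25.9% and 26.4% in the Pax5-site libraries (exact permutation test, p = 1.0). The middle region (VH7-2 to VH8-1) held 22.1% and 20.2%, compared with 22.2%, 22.2% and 21.5% (p = 0.4 by the same exact test). The VH1 region from VH1-1 to VH1-47 held 39.3% and 37.0%, compared with 38.2%, 39.0% and 39.1% (p = 0.7 by the same exact test). This region is set by position and also holds genes of other families, such as VH12-3, VH10-1 and VH13-2. In the proximal region, library B was the highest and library A the lowest of the 5 libraries on this scale. Per all joints, the proximal region did not overlap, with 11.5% and 9.97% in libraries A and B against 9.89%, 9.82% and 9.51% (ratio of means 1.10, p = 0.1 by the same exact test), and library B lay close to the highest Pax5-site library. The middle and VH1 regions overlapped per all joints (p = 0.8 for each by the same exact test).

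Of 16 VH families with usage above 0, 4 (25.0%, beside 14.5% of single VH genes) were lower per VDJH joints in the CTCF-site mutant without overlap (VH4, VH8, VH11 and VH12) and none was higher without overlap. The VH8 family held 1.71% and 1.47% of VDJH joints in libraries A and B, and 1.84%, 2.19% and 1.91% in the Pax5-site libraries (exact permutation test, p = 0.1). Without VH8-7, the groups overlapped at 1.41% and 1.15% against 1.19%, 1.40% and 1.26%. The VH11 family, which in mice is best known from B-1 cells, held 2.07% and 1.86%, compared with 2.61%, 2.32% and 2.24% (p = 0.1 by the exact test). VH4 held 3.11% and 2.94%, compared with 3.38%, 3.38% and 3.12%, and VH12 held 3.32% and 3.17%, compared with 4.15%, 3.57% and 3.82% (p = 0.2 for each by the exact test). Per all joints, the separation was lost for all 4 families, with ratios of means of 0.901 for VH8, 0.921 for VH11, 1.02 for VH4 and 0.942 for VH12 (exact permutation test, p between 0.7 and 0.9). The large VH1, VH5 and VH2 families overlapped per VDJH joints, while VH5 was higher per all joints (ratio 1.12, p = 0.1 by the exact test), and no p over the 16 families was below 0.1, the smallest that the test can give.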

How the data were processed

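VDJ-seq was performed by the authors on sheared genomic DNA of sorted pro-B cells with adapters containing molecular identifiers, JH primer extension and paired-end sequencing. Reads were processed by a published VDJ-seq procedure, and the submitters' processing notes name R 3.3.3. The deposited values (unit other) are percentages of VDJH and DJH joints per VH gene, as the source data of the study state. They sum to the VDJH percentage of a library. The aligner and the genome build used for VDJ-seq are not given in the sources used here. No counts of joints are given, and depth was not derived from the percentages. The 240 VH names were ordered with the RefSeq table (GRCm38), which held 183 of them.

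From the deposited percentages, usage was compared by limma 3.58.1 in R 4.3.3 (lmFit, eBayes with trend) on log2(percentage + 0.01) in the 5 libraries, with Benjamini-Hochberg adjustment and a threshold of 0.05. VH genes with a mean of at least 0.01% outside the deleted block and VH8-7 were tested. Per all joints, limma shrank the spread of each gene fully to the trend, so that the errors depend on the usage level, whereas per VDJH joints it did so only in part. Sums and ratios were compared by exact permutation tests over 10 splits. The limma script was tested on simulated data. A VH gene that shares sequence with a near-identical copy may have been split between names.

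The genes named are VH8-7, the 6 distal, the 6 downstream and the 8 most used VH genes, and up to 5 higher and 5 lower genes that passed without overlap. Where fewer passed, up to 3 per direction with the smallest unadjusted p and no overlap were named instead. The members and lists were chosen with earlier results of these data known. Alternatives concerned the pseudocount, filter, denominator, trend, centring, libraries in the fit and each library left out.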

Additional observations from a re-analysis of the deposited data

How the results depend on the processing

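The level of VH8-7 among VDJH joints, its level among all joints and its ratio to the 6 distal VH genes stayed lower in the CTCF-site mutant under every alternative run, as did its limma difference (log2 -1.20 to -0.65, limma adjusted p between 0.003 and 0.978). No VH gene passed per all joints, 1 (VH8-7) passed per VDJH joints, and leaving out each library in turn gave 0 to 1 on both scales, with VH1-4 passing per all joints without Pax5-site library 2 (log2 difference 1.43). VH genes at an unadjusted p under 0.05 per all joints numbered 9 without library A and 19 without library B, beside 4. The CTCF-site group is then 1 library, which was assumed to vary like the Pax5-site libraries.

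With each library left out in turn, the ratio of means (CTCF-site over Pax5-site) ranged from 0.918 to 1.299 for VDJH joints, from 0.986 to 1.69 for the 6 distal and from 0.774 to 1.14 for the 6 downstream VH genes per all joints. It ranged from 0.904 to 1.11 for the proximal region, from 0.918 to 1.00 for the middle region, from 0.954 to 1.01 for the VH1 region, from 0.906 to 1.16 for VH5 and from 0.889 to 1.07 for VH2. Each of these crossed 1. Per all joints, the proximal region was at 1.10 and no longer overlapped, the middle region was at 1.07, the VH1 region at 1.10, VH2 at 1.07 and VH4 at 1.02, the last 4 opposite in direction to the values per VDJH joints. Without library B and Pax5-site library 1 together, an alternative chosen after seeing the data, the 6 downstream genes were at 1.12, the proximal region at 0.931, the middle and VH1 regions at 1.01 each and VH5 at 0.929. Scaled to Igh(+/+), the 6 downstream genes were at 1.02.

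Of 353 recomputed log2 differences of named VH genes, 22 changed sign, none of them past the test. VH1-80 and VH13-2 were at -0.090 and -0.093 per VDJH joints and at -0.018 and -0.020 after median centring (also chosen after seeing the data). With each library left out, the log2 difference per all joints ranged from -0.041 to 0.46 for VH1-84, from -0.068 to 0.66 for VH1-81, from -0.24 to 0.31 for VH1-80, from -0.68 to 0.18 for VH1-47, from -0.42 to 0.025 for VH1-39 and from -0.066 to 0.53 for VH1-36. It ranged from -0.073 to 0.53 for VH1-26, from -0.38 to 0.22 for VH12-3, from -0.19 to 0.46 for VH10-1, from -0.27 to 0.34 for VH13-2 and from -0.22 to 0.50 for VH1-18. Per VDJH joints, it ranged from -0.27 to 0.29 for VH5-2 and from -0.23 to 0.27 for VH2-2. The cause of these changes was not tested. No paired analysis was possible because the labels carry no number that ties a CTCF-site mouse to a Pax5-site mouse. Counts of joints were not analysed here, so that no counting error is given, and values are coarsest in Pax5-site library 1.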
